A study of Mus musculus with 6 samples.

Results

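A set of 10 genes of the brain's hyaluronan-based extracellular matrix was examined in the P7 (postnatal day 7) mouse cortex. They are the tenascins Tnc, Tnr and Tnxb, the lecticans Vcan, Ncan, Bcan and Acan, the link proteins Hapln1 and Hapln4, and the hyaluronan synthase Has2. All 10 were found by symbol among the 24972 genes of the table, and all 10 had a normalized count of at least 10 in at least 3 libraries, the filter that left 15800 genes for testing. The family was chosen by name after the log2 fold changes of some of its genes in this same comparison, such as Tnc and Vcan, were known. The values and adjusted p-values of the 10 genes are therefore a description, and their counts give no independent support to any of them.

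RNA was sequenced from dissected cortices of 3 wildtype and 3 Zmiz1-KO libraries. The mice labelled wildtype are Zmiz1f/f and those labelled Zmiz1-KO are Zmiz1f/f;Emx1Cre, so both groups carry the floxed alleles and only the latter carries Cre. Emx1 drives Cre in the progenitors of cortical excitatory neurons and astrocytes, so interneurons, microglia, vessels and meninges are outside the lineage in which Zmiz1 is deleted. No Cre-only control, litter, sex or batch is given. The number of animals behind each library is not said, so the p-values measure the spread between these libraries, which may be technical in part.

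Lecticans are chondroitin sulfate proteoglycans that bind hyaluronan at one end and tenascins at the other, and link proteins lock the lectican to the hyaluronan chain. In the newborn cortex this matrix is loose and holds much neurocan, versican and tenascin-C. As the cortex matures, tenascin-R, brevican and aggrecan become more prominent, and a dense form, the perineuronal net, encloses parvalbumin interneurons and some other neurons. Astrocytes, radial glia, oligodendrocyte precursors and neurons all make components of it. In whole cortex, fewer cells of a type and less RNA per cell cannot be told apart.

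Zmiz1 itself, the targeted gene, was measured first. The libraries gave normalized counts of 8119, 7929 and 7461 in wildtype and 9944, 9779 and 9660 in those with the Zmiz1-KO label, called KO-labelled below. The groups did not overlap, and the gene was higher under the label that says it is deleted, with a log2 fold change of 0.32 (SE 0.0402) and an adjusted p of 0.00125 in limma. Each gene has a single value in the table, which does not show whether a deleted exon was read. The qPCR of the study, which included Zmiz1 and Tnc, is not analysed here. Directions below are those of the labels as given. Xist, the RNA that silences an X chromosome in female cells, stood at 25307 in wildtype replicate 3 and 24403 in Zmiz1-KO replicate 2. In the other libraries it was at 57.3 or less. Ddx3y, a gene of the Y chromosome, stood at 0 and 1.89 in those 2 libraries and at 1250 or more in the others. Each group thus holds 1 library with the female pattern of these genes, and both were left out together as an alternative. By estimate, each library held between 15494889 and 17858391 counted reads.

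The upstream sequence of Tnc and Vcan, the tenascin and the lectican with the lowest adjusted p, is shown as the RefSeq windows of 250 bases before the annotated start (GRCm38.p6). For Tnc this is chr4:64047016-64047265 on the minus strand, and for Vcan chr13:89742513-89742762 on the minus strand. Both are printed 5′ to 3′ along the gene, with matches to the searched motifs, on either strand, in capitals.
Tnc: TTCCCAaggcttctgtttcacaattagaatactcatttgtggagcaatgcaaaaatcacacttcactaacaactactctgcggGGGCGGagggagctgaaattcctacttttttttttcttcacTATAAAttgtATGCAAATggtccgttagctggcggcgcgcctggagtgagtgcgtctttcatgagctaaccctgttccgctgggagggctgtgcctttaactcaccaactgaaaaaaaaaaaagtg
Vcan: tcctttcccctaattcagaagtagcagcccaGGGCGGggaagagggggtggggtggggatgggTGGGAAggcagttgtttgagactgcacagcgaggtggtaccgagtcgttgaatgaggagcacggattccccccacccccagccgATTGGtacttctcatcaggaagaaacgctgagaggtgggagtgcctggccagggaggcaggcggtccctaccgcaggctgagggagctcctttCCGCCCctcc
The motifs searched on both strands were TATAAA (bound by TBP), CCAAT (bound by NF-Y), GGGCGG (bound by SP1), TGANTCA (bound by AP-1), TGGGAA (the core bound by RBPJ, the transcription factor of Notch signaling) and ATGCAAAT (the octamer bound by POU-domain factors). No 2 matches overlap in these windows. The Tnc window held TATAAA with its first base 126 bases before the start, the octamer at 116 bases, GGGCGG at 167 bases and TGGGAA, on the opposite strand, at 250 bases. The Vcan window held no match to the octamer or to TATAAA. It held GGGCGG at 219 bases and, on the opposite strand, at 10 bases, CCAAT on the opposite strand at 103 bases, and TGGGAA at 187 bases. Of all 32536 windows of this length, 1.62% held the octamer, 12.3% TATAAA, 6.73% TGANTCA, 21.6% TGGGAA, 33.0% GGGCGG and 33.8% CCAAT. The GC content was 44.8% for Tnc and 62.4% for Vcan, beside a median of 52.4% over all windows. A match is a run of letters and does not show that a factor binds there. Windows were matched for 8 of the 10 genes, all but Has2 and Hapln4, and for Tnc the window of the upstream of its 2 annotated starts is shown.

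Tnc, which encodes tenascin-C, a glycoprotein that radial glia and immature astrocytes secrete, was lower where the label is Zmiz1-KO. Its gene lies on chromosome 4 (63959785 to 64047015, minus strand, GRCm38). Normalized counts were 4122, 4194 and 4282 in wildtype and 2687, 2630 and 2745 in the KO-labelled libraries. The 3 libraries within each group lay close together, and the gap between the groups was many times wider than either spread. The means were 4199 ± 79.8 and 2687 ± 57.6 (SD, n = 3 per group), so that Tnc fell by 36%. The log2 fold change was -0.64 (SE 0.0426) with an adjusted p of 2.86e-07 in limma, and Tnc ranked 2 among the 15800 genes by p. In all 16 alternatives it remained past the threshold, with a log2 fold change between -0.66 and -0.61. The values stand for an estimated 1989 to 2083 reads per library in wildtype and 1351 to 1438 in the KO-labelled libraries. Of the 75-base stretches of its transcripts, 0.399% also occur in another gene, 8030451A03Rik, which overlaps 176 of its exon bases (2.26%).

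Tnr encodes tenascin-R, which oligodendrocyte-lineage cells and some interneurons make and which joins lecticans into perineuronal nets. It lies on chromosome 1 (159523769 to 159931729, plus strand). It was measured at normalized counts of 529, 1000 and 888 in wildtype and 623, 1116 and 646 in the KO-labelled libraries. The groups overlapped, with 2 of the 3 libraries of each inside the range of the other, and within each group the values spread widely, with a coefficient of variation of 30.6% in wildtype and 35% in the other group. The log2 fold change was -0.02 (SE 0.384, 95% interval -1.07 to 1.03, adjusted p = 0.992 in limma). An interval this wide would hold a difference as large as that of Tnc in either direction, so such a difference was not detectable here. Of its 75-base stretches, 2.29% are shared, mainly with Gm38039, a gene that overlaps it.

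Tnxb encodes tenascin-X, a tenascin of connective tissue. The locus is on chromosome 17 (34670535 to 34719815, plus strand), and 4.12% of the 75-base stretches of its transcripts are shared, mainly with its partial copy Tnxa, so its count is less certain than the others. Its normalized counts were 299, 279 and 311 in wildtype and 274, 232 and 341 in the KO-labelled libraries. The wildtype values all lay inside the range of the other group, and the log2 fold change was -0.08 (SE 0.129, 95% interval -0.36 to 0.19, adjusted p = 0.873).

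Vcan encodes versican, the lectican of the immature matrix, which is also made by oligodendrocyte precursors and by vascular and meningeal cells. Its gene is on chromosome 13 (89655312 to 89742509, minus strand). The libraries gave normalized counts of 4237, 3964 and 3799 in wildtype and 3473, 3517 and 3413 in the KO-labelled libraries. Every KO-labelled library lay below every wildtype library, by a smaller gap than for Tnc. The means were 4000 ± 221 and 3468 ± 52, with a log2 fold change of -0.20 (SE 0.0464) and an adjusted p of 0.0763, which misses the threshold of 0.05. Leaving out Zmiz1-KO replicate 2 gave -0.21 with an adjusted p of 0.0478, and leaving out both libraries with high Xist gave -0.25 with 0.0332. Over the 6 fits that each left out 1 library the adjusted p ranged from 0.0478 to 0.385.

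Ncan encodes neurocan, the most abundant lectican of the young cortex. It lies on chromosome 8 (70093085 to 70120873, minus strand). Normalized counts were 25935, 24153 and 23466 in wildtype and 23582, 21742 and 23537 in the KO-labelled libraries. The lowest wildtype library lay below 2 of the 3 KO-labelled libraries. The means were 24518 ± 1275 and 22953 ± 1050, with a log2 fold change of -0.09 (SE 0.043, adjusted p = 0.429).

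Bcan encodes brevican, a lectican of astrocytes that accumulates as the cortex matures. The locus is on chromosome 3 (87987531 to 88000230, minus strand). It was measured at normalized counts of 9702, 10031 and 9487 in wildtype and 10605, 9775 and 10604 in the KO-labelled libraries. Zmiz1-KO replicate 2 lay within the wildtype range and the other two above it. The means were 9740 ± 274 and 10328 ± 479, with a log2 fold change of 0.08 (SE 0.0415, adjusted p = 0.485).

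Acan encodes aggrecan, the lectican that neurons place in perineuronal nets. Its gene is on chromosome 7 (79053483 to 79115099, plus strand). Its normalized counts were 221, 175 and 163 in wildtype and 163, 204 and 173 in the KO-labelled libraries. The groups covered nearly the same range, with a log2 fold change of -0.05 (SE 0.147, 95% interval -0.36 to 0.26, adjusted p = 0.945). These values rest on an estimated 79.5 to 111 reads per library.

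Hapln1 encodes a link protein that neurons of perineuronal nets and other cortical cells make. It lies on chromosome 13 (89539796 to 89611652, plus strand), 43659 bases from Vcan. The libraries gave normalized counts of 1112, 1218 and 1180 in wildtype and 1281, 1481 and 1283 in the KO-labelled libraries. All 3 of the latter lay above all of wildtype, and Hapln1 was the only member of the 10 with that order. The means were 1170 ± 53.9 and 1348 ± 115, with a log2 fold change of 0.20 (SE 0.0664) and an adjusted p of 0.243, which misses the threshold. It did not pass in any of the 16 alternatives, in which its log2 fold change ranged from 0.13 to 0.24.

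Hapln4 encodes the brain link protein that is found with brevican at nets and at perisynaptic sites. The locus is on chromosome 8 (70083457 to 70090862, plus strand), 2222 bases from Ncan. Normalized counts were 93.5, 158 and 173 in wildtype and 130, 181 and 134 in the KO-labelled libraries. The groups overlapped, with a log2 fold change of 0.10 (SE 0.224, 95% interval -0.39 to 0.59, adjusted p = 0.918).

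Has2 encodes the main hyaluronan synthase of embryonic tissue, which makes the chain that all lecticans bind. Its gene is on chromosome 15 (56665627 to 56694539, minus strand). It was measured at normalized counts of 83.1, 65.8 and 75.9 in wildtype and 33.7, 33.0 and 39.9 in the KO-labelled libraries. The groups did not overlap, and the highest KO-labelled library lay well below the lowest of wildtype. The means were 74.9 ± 8.7 and 35.5 ± 3.77, so that wildtype stood 2.11-fold higher, the widest ratio among the 10 genes. The log2 fold change was -1.05 (SE 0.231) with an adjusted p of 0.0618, which misses the threshold. These values stand for an estimated 31.2 to 41.4 reads per library in wildtype and 17 to 19.7 in the other group. The adjusted p fell to 0.0477 when a value of at least 10 was required in every library and to 0.0487 with a pseudocount of 10. It ranged from 0.0714 to 0.226 when each library was left out in turn. An antisense gene, Has2os, overlaps 182 exon bases (4.3%) of Has2, and the library kit does not mark strand, so reads there cannot be assigned to one of them.

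**Figure D1:**
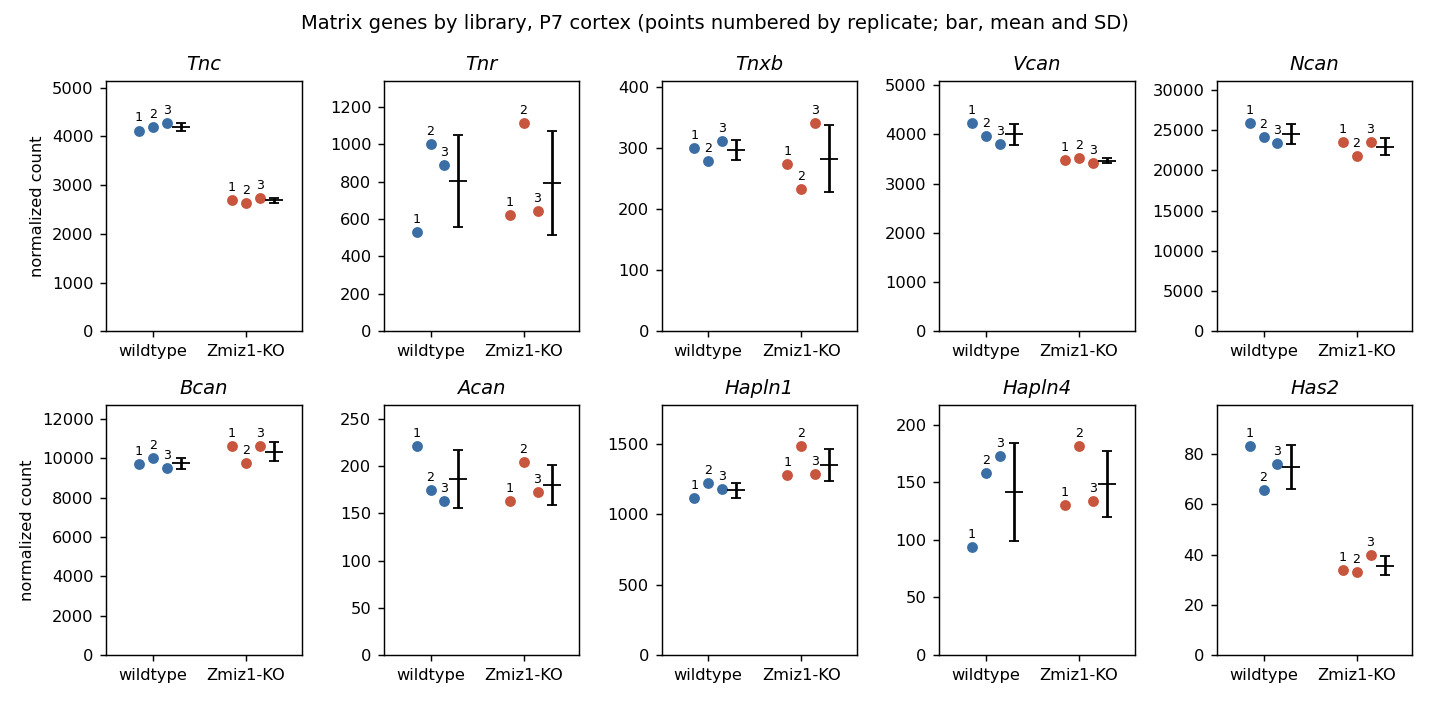
Normalized counts (vertical axes, from 0) of the 10 matrix genes in each library of wildtype and of the group labelled Zmiz1-KO, with points numbered by replicate and bars for the mean and SD of 3 libraries. Tnc, Vcan and Has2 are lower in every KO-labelled library than in every wildtype library, Hapln1 is higher, and the other 6 genes overlap.

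Of the 10 genes, 1 was past the threshold, Tnc, and it was lower. Over all tested genes, 65 were past it, which is 0.411%. By the same fit, 7 of the 10 log2 fold changes were below 0 and 3 above, with a median of -0.07 beside 0 for all genes and a median absolute value of 0.0986 beside 0.0745. The 2 groups did not overlap for 4 of the 10 genes, 3 lower and 1 higher, beside 16.3% of all tested genes (2570 of 15800). Since the family was picked with these values in view, nothing is read from these shares.

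**Figure D2:**
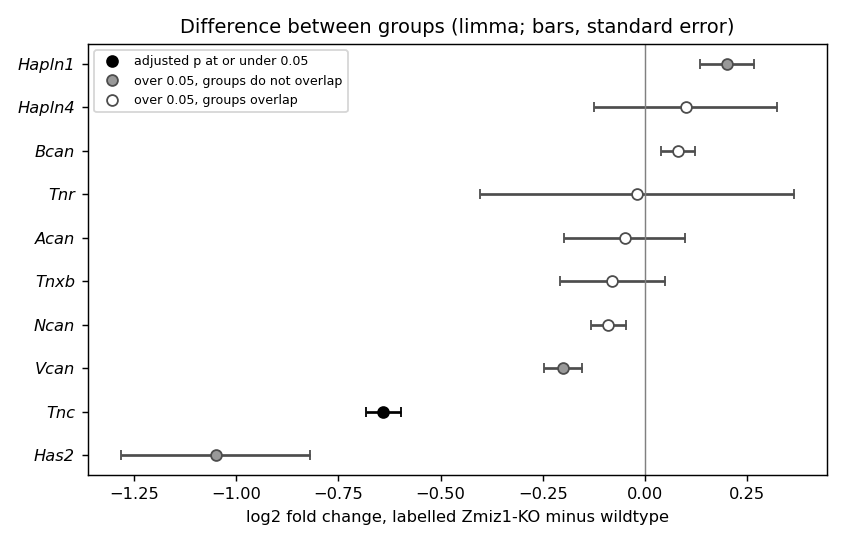
Log2 fold change of each of the 10 genes, labelled Zmiz1-KO minus wildtype, with its standard error from limma on log2(value + 1). Tnc at -0.64 is the only gene past the threshold, Has2 at -1.05 lies farther from 0 with a wider error, and the bars of Tnr reach past those of every other gene that lies near 0.

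Levels of different genes were set side by side as normalized counts per kilobase of exon. Ncan was highest at 3408 ± 177 in wildtype and Has2 lowest at 17.7 ± 2.05 (SD, n = 3), and the order of the 10 group means was the same in both groups. Bcan followed Ncan at 2397 ± 67.4 per kilobase in wildtype, and the libraries of these 2 genes did not overlap. With the longest transcript in place of all exons, Bcan moved above Ncan in the KO-labelled libraries, so their order depends on the length used. Tnc came next at 540 ± 10.3 in wildtype and 346 ± 7.41 in the KO-labelled libraries, above Vcan at 277 ± 15.3 and 240 ± 3.6. Hapln1 followed at 198 ± 9.14 and 228 ± 19.4. In the KO-labelled libraries the highest value of Hapln1, 251, lay above those of Vcan, 236 to 243, so these neighbours were apart in wildtype only. The lower genes were Tnr at 62.6 ± 19.1, Hapln4 at 36 ± 10.7, Acan at 24.9 ± 4.05 and Tnxb at 24.3 ± 1.35 per kilobase in wildtype, with Tnr overlapping Hapln4, Hapln4 overlapping Acan and Acan overlapping Tnxb between libraries of wildtype. Among the KO-labelled libraries only Acan and Tnxb overlapped. Per length, the transcripts of Ncan, Bcan, Tnc and Vcan were far above those of Acan in every library at this age.

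**Figure D3:**
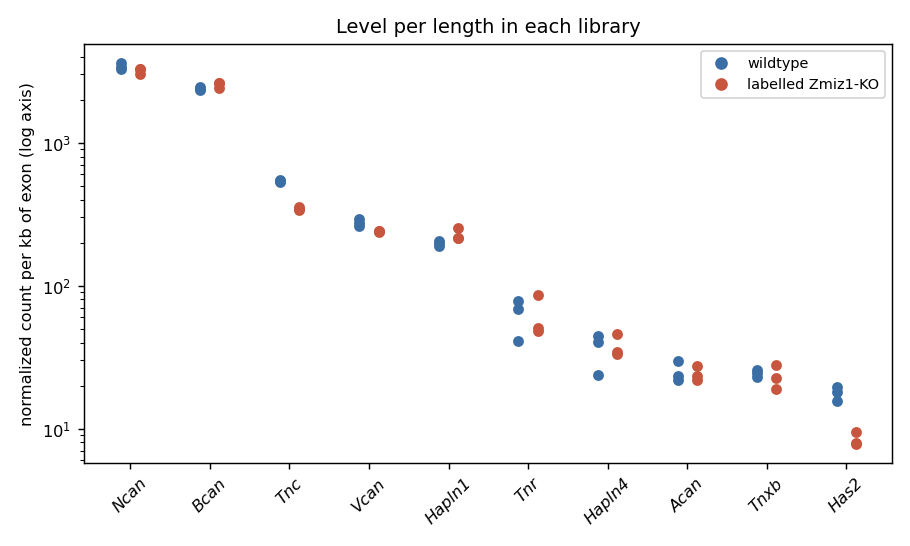
Normalized count per kilobase of exon (log axis) of each gene in each of the 6 libraries, ordered by the wildtype mean. Ncan and Bcan lie at 2334 or above in every library, and Acan, Tnxb and Has2 lie below 30.

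Among the 4 lecticans, each gene's share of their summed level per kilobase was computed in each library. The share of Ncan was 57.1%, 54.8% and 55.5% in wildtype and 53.3%, 53% and 53.3% in the KO-labelled libraries. The share of Bcan was 37.8%, 40.3% and 39.7% in wildtype and 42.4%, 42.2% and 42.5% in the KO-labelled libraries. The share of Vcan was 4.64%, 4.48% and 4.47% in wildtype and 3.91%, 4.27% and 3.84% in the KO-labelled libraries. None of these 3 shares overlapped between the groups, with Ncan and Vcan lower and Bcan higher in each KO-labelled library. In their own counts Ncan and Bcan each overlapped between the groups, and neither was past the threshold. Of all tested genes, 16.3% did not overlap in their own values. Shares of a whole are tied to each other, so they can separate together, and no test was made of them. The percentages depend on the length used, and only the length of all exons was used here. Acan made up 0.407% ± 0.0524 and 0.403% ± 0.066. Among the tenascins, Tnc made up 86.2% ± 2.46 in wildtype and 80.4% ± 3.64 in the KO-labelled libraries.

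**Figure D4:**
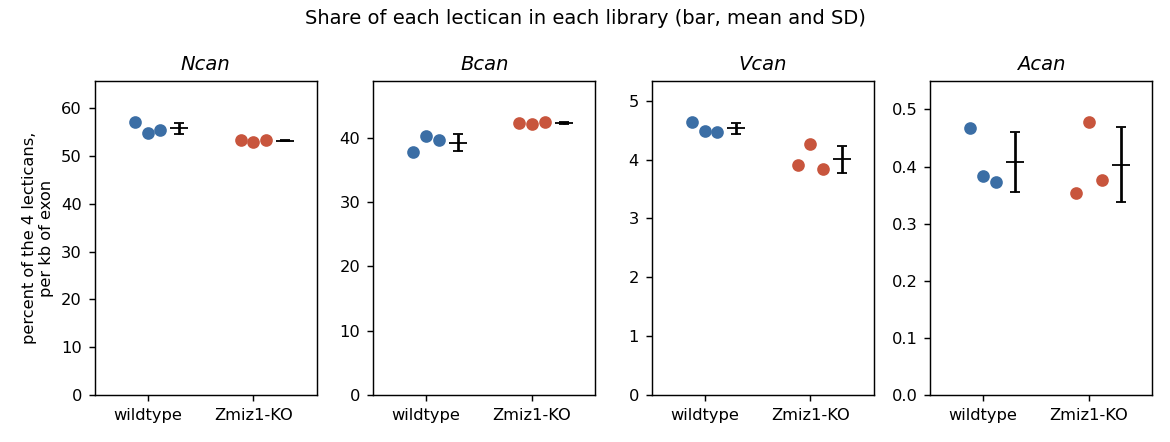
Share of each lectican in the summed level per kilobase of the 4 lecticans (percent, each axis from 0), by library, with the mean and SD of 3 libraries per group. Ncan and Vcan shares are lower and Bcan shares higher in all 3 KO-labelled libraries than in wildtype, and Acan shares overlap.

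A single measure of the balance between the juvenile and the mature matrix was taken as the mean log2(value + 1) of Tnc, Vcan and Ncan minus that of Tnr, Bcan and Acan. It was 2.88, 2.61 and 2.70 in wildtype and 2.56, 2.16 and 2.51 in the KO-labelled libraries. Every KO-labelled library lay below all of wildtype. The difference of the means was -0.32 on the log2 scale, and -0.197 without Zmiz1-KO replicate 2, the library in which Tnr was highest. The juvenile genes of the score had log2 fold changes of -0.64 (Tnc), -0.20 (Vcan) and -0.09 (Ncan). The mature genes had -0.02 (Tnr), 0.08 (Bcan) and -0.05 (Acan), so the difference came mostly from Tnc. The score holds Tnc and Vcan, which are part of what the family was picked on, and was not tested.

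Tnr and Hapln4 varied widely between libraries, and did so together across the groups. Both were highest in wildtype replicates 2 and 3 and in Zmiz1-KO replicate 2, and lowest in wildtype replicate 1. Over the 6 libraries their log2 values had a Pearson correlation of 0.917, given as a description with no test. Hapln1 was also highest in Zmiz1-KO replicate 2 and lowest in wildtype replicate 1. The 5 genes outside the family whose log2 values followed Tnr most closely were Golgb1 (r = 0.995), Rapgef6 (0.988), Gpr149 (0.986), Eml5 (0.982) and Rybp (0.981), a search that was added after the pattern of Tnr was seen. Of these 5 genes, Golgb1, Rapgef6 and Eml5 have 11.9, 13 and 12 kb of exon, close to the 12.9 kb of Tnr, and Gpr149 and Rybp have 4.29 and 4.74 kb, as Hapln4 has 3.92 kb. The median deviation of 2546 genes with at least 8 kb of exon and a mean of at least 100 from their mean over the libraries lay between -0.037 and 0.029 on the log2 scale, and that of Tnr from -0.54 to 0.53. A median over many genes can lie near 0 while single genes vary widely. The part of length in the pattern of Tnr was not tested.

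**Figure D5:**
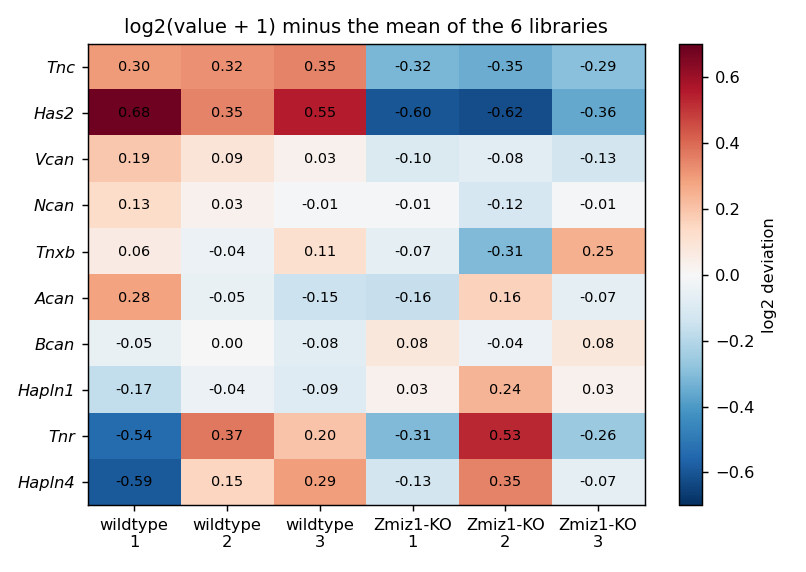
Deviation of log2(value + 1) of each gene in each library from the mean of the 6 libraries. Tnc, Has2, Vcan and Hapln1 divide the libraries by their label, Vcan and Hapln1 with smaller deviations. Tnr and Hapln4 are above 0 in wildtype replicates 2 and 3 and Zmiz1-KO replicate 2. They are below 0 in the other 3 libraries.

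The genes outside the family whose pattern over the 6 libraries was most like that of Tnc, among genes with a mean of at least 100, were Clock (r = 0.996), Otud7b (0.996), Ddx46 (0.99), Hectd2 (0.99) and Tspan17 (0.989). Clock encodes a transcription factor of the circadian clock and Ddx46 an RNA helicase of splicing. Their log2 fold changes, -0.20 to -0.10, were closer to 0 than that of Tnc, and none was past the threshold. The search took the highest correlations of many genes over 6 libraries that Tnc divides by label. Genes with a small gap between tight groups reach such values, and shared regulation was not tested.

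Of 98 further genes of this matrix, taken from lists by role, 95 were tested and 3 were past the threshold, all lower: Ptprz1, Ptprd and Ptn. The median log2 fold change of the 95 was 0.03, and the groups did not overlap for 20 of them, 11 higher and 9 lower. These are to be read beside the 0.411% and 16.3% of all genes. The lists were written with earlier results of these data known, so the counts give no independent support.

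Among 17 tested receptors of the matrix, 2 were lower and none higher past the threshold. Ptprz1 encodes a receptor phosphatase of glia, itself a chondroitin sulfate proteoglycan in its secreted form, that binds tenascins. Its normalized counts were 19622, 20102 and 18710 in wildtype and 15429, 16592 and 14852 in the KO-labelled libraries. The groups were well apart, with a log2 fold change of -0.32 (SE 0.043, adjusted p = 0.00203), and it was past the threshold in all 16 alternatives. Ptprd encodes a receptor phosphatase of the LAR family, which contains receptors for chondroitin and heparan sulfate. The libraries gave normalized counts of 8600, 7683 and 7871 in wildtype and 6740, 6901 and 6759 in the KO-labelled libraries, which did not overlap. Its log2 fold change was -0.24 (SE 0.0439, adjusted p = 0.0213), and its adjusted p was 0.0792, 0.125 and 0.172 without wildtype replicate 1, Zmiz1-KO replicate 1 and Zmiz1-KO replicate 3. Itga8, an integrin subunit that pairs with beta 1 to bind tenascin-C, had -0.28 with an adjusted p of 0.379.

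Ptn encodes pleiotrophin, a secreted growth factor that binds chondroitin sulfate chains and Ptprz1. It was the only one of 16 tested partners of lecticans and tenascins past the threshold. Normalized counts were 20617, 19230 and 19401 in wildtype and 16855, 17710 and 16125 in the KO-labelled libraries. Every KO-labelled library lay below wildtype, with a log2 fold change of -0.23 (SE 0.0411, adjusted p = 0.0216). The adjusted p was 0.086, 0.0539, 0.122 and 0.228 without wildtype replicates 1 and 3 and Zmiz1-KO replicates 1 and 3. Fbln1, encoding fibulin-1, a ligand of lecticans, had 0.20 with an adjusted p of 0.399.

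Of 18 proteases and inhibitors, none was past the threshold in limma or limma-voom, and 5 had an unadjusted limma p under 0.05, beside 11.0% of all tested genes (1733 of 15800). Adamts4, a protease that cuts lecticans, had normalized counts of 164, 211 and 208 in wildtype and 143, 110 and 93.3 in the KO-labelled libraries. Its groups did not overlap, but with a log2 fold change of -0.76 (SE 0.171) its adjusted p was 0.0713, and it was over 0.05 in all 16 alternatives. Timp1, an inhibitor of metalloproteases, had 0.46 with an adjusted p of 0.709, and 0.22 to 0.68 when each library was left out, lowest without wildtype replicate 1.

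Of 21 tested enzymes that build and sulfate chondroitin sulfate chains, none was past the threshold in limma or limma-voom, 1 had an unadjusted limma p under 0.05 (11.0% of all genes), and their median log2 fold change was -0.02. Their largest values were -0.17 for B3galt6, an enzyme of the linker between chain and protein (adjusted p = 0.517), and 0.15 for Chst3, a sulfotransferase (adjusted p = 0.756). Of 14 tested genes of hyaluronan synthesis, breakdown and binding, including the other link proteins and tenascin-N, none was past the threshold in limma or limma-voom, and 0 had an unadjusted limma p under 0.05, beside the same 11.0%. Hyal3, of the hyaluronidase family, had 0.71 (adjusted p = 0.59) and Hapln2, the link protein of nodes of Ranvier, -0.65 (adjusted p = 0.783), both at means under 20 normalized counts. Leaving out each library moved Hapln2 from -1.24, without Zmiz1-KO replicate 2, to -0.14, without wildtype replicate 1 or Zmiz1-KO replicate 1.

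Of 9 tested genes of net cargo and net-bearing neurons, none was past the threshold in limma or limma-voom, and 2 had an unadjusted limma p under 0.05, again beside 11.0% of all genes. In all, 7 had log2 fold changes above 0, with a median of 0.11. Nptx2, a pentraxin that gathers at synapses on net-bearing interneurons, had 0.20 with an adjusted p of 0.381 and groups that did not overlap. Otx2, a homeoprotein that nets take up, had 0.40 (SE 0.653, adjusted p = 0.886), with normalized counts of 6.1, 48.1 and 26.9 in wildtype and 22, 37.8 and 24.2 in the KO-labelled group. Otx2 is also expressed in choroid plexus, whose 5 markers summed to 262, 8313 and 6306 in wildtype and 3148, 299 and 4801 in the KO-labelled group. Both were lowest in wildtype replicate 1 and highest in wildtype replicate 2, while Zmiz1-KO replicate 2 was low in the markers and not in Otx2, and the part of this tissue in the values was not tested. Pvalb, the marker of the interneurons that nets enclose, was between 1.99 and 10.3 in all 6 libraries and was left out by the filter.

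Markers of the cells that make this matrix were measured beside it, as the sum of each list's normalized counts per library. The 9 astrocyte markers summed to 71603 to 76796 in wildtype and 65743 to 73591 in the KO-labelled libraries, which overlap, and 1 of them was past the threshold: Aqp4, a water channel, with a log2 fold change of -0.29 (adjusted p = 0.00499). The 8 radial glia and progenitor markers summed to 18558 to 19685 and 18620 to 19959, with none past the threshold. The 6 oligodendrocyte precursor markers summed to 12134 to 12982 in wildtype and 11180 to 11560 in the KO-labelled libraries, which do not overlap, with none past the threshold. All lists overlapped except these precursors and 3 others, whose sums were all higher in the KO-labelled group. Of all tested genes, 16.3% did not overlap in their own values and 0.411% were past the threshold. Sums follow the highest genes of a list, and no test was made of them. The 6 meningeal fibroblast markers summed to 8157 to 9575 in wildtype and 10750 to 11282 in the other group, with Col1a2, a fibrillar collagen, past the threshold at 0.32 (adjusted p = 0.00464). The 6 interneuron markers summed to 16026 to 19906 and 21100 to 22664, and the 6 striatal projection neuron markers to 9224 to 12655 and 12993 to 14474, with none past the threshold. The labelled tissue is cortex, and the 6 excitatory neuron markers summed to 55436 to 59717 and 54120 to 58109. No marker was at 0 in all libraries. The part that these shifts have in the values of Tnc, Vcan, Has2, Hapln1 and Ptprz1 was not tested.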

How the data were processed

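Per the paper, the authors aligned the reads with STAR to mm10 in BaseSpace and then applied the DESeq2 normalization. What the authors deposited is 1 table of this normalized signal, called normalized counts here, with 1 column per library. The gene annotation and tool versions are not given in the sources used here. The most common value above 0 was 1.83 to 2.11, depending on the library, and was taken as 1 read to estimate reads. Whether it stands for 1 read or for a read pair is not known, and whole reads were not recovered. A count test was therefore not run. The estimate covers the depth only, and 3 libraries per group limit the precision.

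Genes that reached 10 normalized counts in 3 or more libraries were tested on log2(value + 1) with limma (version 3.58.1, R version 4.3.3, trend and robust), two-sided, without covariates, with Benjamini-Hochberg adjustment over all 15800 genes and a threshold of 0.05. Fold changes on this scale understate those of low genes. The smallest p of an exact permutation test at this size is 0.1. The procedure was also run on simulated data with known changes, whose outcome is not given here, so nothing is read from it. Means and SD are of normalized counts. The members and lists were chosen with earlier results of these data known.

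Named are all members, Zmiz1, Xist, Ddx3y, the 5 genes most like Tnc, and markers past the threshold. Of each matrix list, the genes past the threshold and the 2 with the largest absolute change are named. The genes most like Tnr were added after values were seen. Tmem2 stands for Cemip2. Coordinates, exon lengths and shared 75-base stretches are from GENCODE on GRCm38, and promoters from RefSeq. The alternatives were limma-voom, median-ratio and trimmed-mean scaling, no filter or a minimum of 10 in all 6 libraries, a pseudocount of 0.1 or 10, no robust estimation, the replicate number as a block, both libraries with high Xist left out, and each library left out. Plots used matplotlib 3.10.9 under Python 3.11.15.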

Additional observations from a re-analysis of the deposited data

How the results depend on the processing

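Over all tested genes, 65 were past the threshold. The count was 17 without robust estimation, 146 with both libraries of high Xist left out, and 12 (without Zmiz1-KO replicate 3) to 151 (without Zmiz1-KO replicate 2) when each library was left out. Among the 10 members, 2 were past the threshold with a minimum of 10 in all 6 libraries and with a pseudocount of 10 (Tnc and Has2), 2 with both high-Xist libraries left out (Tnc and Vcan), and 1 to 2 when each library was left out. Among the other matrix genes, 1 was past it without robust estimation, and 1 to 4 when each library was left out, with Ptprz1 among them each time. Fewer libraries enter the fits that leave some out, and the count over all genes rose in some of these fits and fell in others. The cause of these shifts was not tested. The log2 fold change of Tnxb was 0.08 with both high-Xist libraries left out. Leaving out each library gave log2 fold changes of -0.30 to 0.16 for Tnr, -0.23 to 0.05 for Tnxb, -0.14 to 0.08 for Acan, -0.17 to 0.27 for Hapln4, 0 to 0.25 for Chst3 and -0.39 to 1 for Otx2, so no direction is given for these genes. The scaling alternatives changed no call among the members or the other matrix genes. Has2, at about 17 to 41 reads per library, is the member whose depth limits it most.

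Both groups carry the replicate numbers 1, 2 and 3, and nothing states that equal numbers were paired. Deviations from the group means correlated at -0.00509, -0.113 and -0.00627 between equal numbers, and at -0.0961 to 0.106 between unequal ones. Whether libraries with equal numbers share a litter, dissection or preparation was not tested. With a replicate block, 168 genes were past the threshold, 3 members (Tnc, Vcan and Has2) and 5 other matrix genes.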
